A study of Homo sapiens with 12 samples.

Results

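The genes described here are components and regulators of the complement system. A list of 33 gene symbols was looked up in the expression tables of sorafenib-resistant and parental hepatocellular carcinoma (HCC) cells, and 31 of them had a row among 27249 Ensembl genes. The other 2, FCN3 and CFHR2, were not analysed here. The 31 genes were grouped by role into the classical pathway, the lectin pathway, the alternative pathway with C3, the terminal pathway, soluble regulators, factor H related proteins, membrane regulators and the C1q-binding protein C1QBP.

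Complement is a cascade of blood proteins, made largely by hepatocytes, that marks microbes and damaged cells for removal. The classical, lectin and alternative routes each build a protease that cleaves C3, and C5 then starts assembly of the membrane attack complex from C6, C7, C8 and C9. Soluble regulators such as C1 inhibitor and C4b-binding protein and membrane regulators such as CD46, CD55 and CD59 hold the cascade in check on host cells.

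RNA was sequenced from 2 established human liver cancer cell lines, Huh7 and HepG2, with 3 samples in each of the 4 groups. The labels give the genotype of all groups as WT. Resistant cells of both lines were exposed to sorafenib, a tyrosine kinase inhibitor (TKI), starting at 10 μmol for 24 h and then at rising concentrations over 8 months, and surviving cells were kept. Parental cells of both lines carry the treatment label None. The labels describe no cloning step and do not say whether the 3 samples of a group were separate cultures, so the p-values measure only the spread between these samples. The tables hold reads scaled by gene length and depth without a stated unit, and the values are called FPKM here. Between 12290128 and 19285960 reads lay behind a sample, with the lowest depths in the parental HepG2 cells. All 8 hepatocyte markers examined, among them ALB, APOA1 and TTR, reached 1 FPKM in every group, with a summed level of 3.10e+03 to 5.79e+03 FPKM. The summed level of 6 macrophage markers was 1.01 to 2.97 FPKM, that of 5 endothelial markers 1.30 to 3.77 FPKM and that of 6 fibroblast and stellate cell markers 1.81 to 5.34 FPKM. The 4 bile duct markers summed to 77.7 to 167 FPKM, nearly all of it SOX9 and KRT19, with KRT7 and CFTR under 1 FPKM. The group mean of KRT19 was 70.4 FPKM in resistant and 7.18 FPKM in parental Huh7 cells (log2 fold change 3.12, limma adjusted p = 7.81e-06) and 13.4 against 7.19 FPKM in HepG2 cells (0.83, adjusted p = 0.0336), while SOX9 fell in both lines (-0.57 and -0.60). KRT19 and some hepatocyte markers thus moved with the groups compared below, and their part in the complement results was not tested.

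Of the 31 complement genes, 15 reached a group mean of 10 FPKM or more and 8 stayed under 1 FPKM in every sample. The most abundant in Huh7 cells was VTN (vitronectin, an adhesive plasma protein that also blocks the terminal complex), followed by CLU (clusterin, a secreted chaperone that binds the same complex). In HepG2 cells C3, the central component of all routes, came first. The summed level of the 31 genes was 588 to 788 FPKM in Huh7 samples and 364 to 597 FPKM in HepG2 samples. C1R, C6, C7, C9, CFD, CFHR3, CFHR4 and CFHR5 were the 8 genes under 1 FPKM throughout. For C7 in parental HepG2 cells no read was counted in any sample, and 0 reads allow up to 3 reads per sample. That limit covers counting error only, since PCR copies of a molecule were counted as separate reads.

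**Figure D1:**
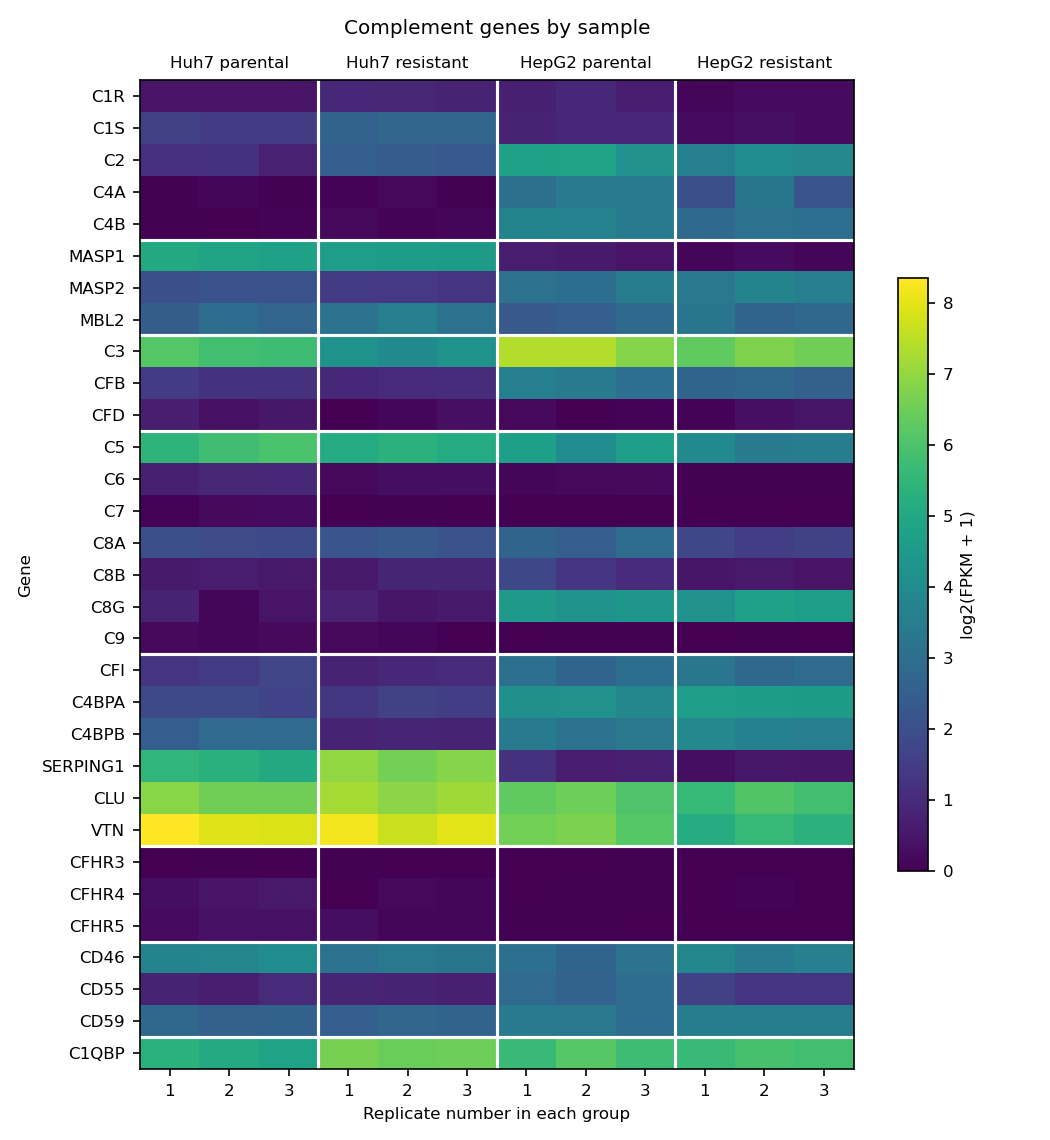
Levels of the 31 complement genes in each of the 12 samples, coloured by log2(FPKM + 1), with genes grouped by role (white lines) and replicate numbers under each group. VTN, CLU and SERPING1 are bright in Huh7 cells, C3 is brightest in HepG2 cells, and C7 and CFHR3 are near 0 everywhere.

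Promoter sequence was available for 21 of the 31 genes, in 32 RefSeq entries on GRCh38.p14, and the 250 bases before each start were searched on both strands for motifs bound by factors that drive acute phase genes. TTCNNNGAA, the core bound by STAT factors, was in 9 of the 32 entries (of C1R, C4BPB, C7, CD59, CFB, MASP2, MBL2 and VTN) and in 6.57% of all 35116 promoters. Entries 1 and 2 of CD59 overlap and hold the same match, which is counted for each. The kappa B consensus (bound by NF-kappa B) was found in 1 of the 32 entries, that of CFB, and in 6.88% of all promoters. GAAANNGAAA, an interferon response motif, was also found in 1 entry, that of CFB, and in 3.02% of all promoters. TTGCNNAA, bound by C/EBP factors, was in 7 entries of 5 genes and in 9.05% of all promoters, and the HNF1 motif (GTTAAT, any base, ATT), bound by factors that drive liver genes, was in 2 entries, of C4BPA and C5, and in 0.296% of all promoters. The entries of C1QBP, C2, C8A, C8B, C9, CD46, CD55, CFD, CFI and MASP1 held none of the 5 motifs. C1S, SERPING1 and C3 were among the genes without an entry and were not searched. A match is a match of letters and says nothing of binding. The windows below are of 30 bases with the match in capitals, written 5′ to 3′ on the strand of the gene, and are shown because they belong to genes whose levels are described next (the choice was made after the values were seen).
C4BPB, STAT, chr1:207089229-207089258 (+): ctggatttgcaTTCCCAGAAaccaggaaat
MASP2, STAT, chr1:11047307-11047336 (-): catggagtcgaTTCCCAGAAtcccagagtc
MBL2, STAT, chr10:52772902-52772931 (-): atttctcatagTTCTGAGAAgagctgttta
VTN, STAT, chr17:28370398-28370427 (-): caggcccagtgTTCCAGGAAtgtgaccttt
CFB, STAT, chr6:31945992-31946021 (+): ccgcttggatgTTCCGGGAAagtgatgtgg
CFB, kappa B, chr6:31945973-31946002 (+): gcagctcagcGGGGCCCTCCcgcttggatg
C4BPA, HNF1, chr1:207104173-207104202 (+): tatttctgctGTTAATCATTcattgggccc
C5, HNF1, chr9:121050326-121050355 (-): ttctgacattAATAATTAACcagattatct
The match of C4BPB ends 35 bases before the third of the starts RefSeq lists for that gene. That of C5 is in entry 2 for C5. That of MBL2 is in entry 1, whose 250 bases (chr10:52772785-52773034) lie upstream of the gene as annotated with the values, which starts at 52771700 on the minus strand.

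Resistant cells were then compared with parental cells within each line. Differential expression required a Benjamini-Hochberg adjusted p-value under 0.05 in limma, fitted over every gene that reached 1 FPKM in 3 or more samples, and a log2 fold change beyond 1. Fold changes are on the log2(FPKM + 1) scale, which understates the change of genes with low levels. In Huh7 cells 18 of the 31 genes were tested. C1S, C2, C1QBP and SERPING1 were differentially expressed and higher, against a background of 8.59% of all genes tested. C3 and C4BPB were differentially expressed and lower, against 14.0%. In HepG2 cells 20 genes were tested. None was differentially expressed and higher in limma (background 3.29%). The count was also 0 at an unadjusted p under 0.05 with the same fold threshold, and 0 in limma-voom (backgrounds 3.77% and 7.01%). CD55, VTN and C8A were differentially expressed and lower (background 2.98%). Counting every size of change, 6 genes rose and 7 fell in Huh7 cells (backgrounds 32.7% and 37.4%), and 2 rose and 9 fell in HepG2 cells (backgrounds 11.6% and 8.43%). The resistant and parental samples did not overlap for 7 genes that were higher and 9 that were lower in resistant Huh7 cells (backgrounds 35.2% and 39.2%), and for 4 higher and 9 lower in resistant HepG2 cells (backgrounds 24.9% and 15.5%). In limma-voom, which also tested genes of lower level, 5 complement genes were differentially expressed and higher and 5 lower in Huh7 cells (of 25, backgrounds 14.3% and 22.4%), and 8 were lower in HepG2 cells (of 24, background 5.16%). The median log2 fold change of the complement genes tested was -0.19 in Huh7 cells, beside -0.04 over all genes, and -0.53 in HepG2 cells, beside 0.12 over all genes. In bulk RNA, fewer cells of a type and less RNA per cell cannot be told apart.

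**Figure D2:**
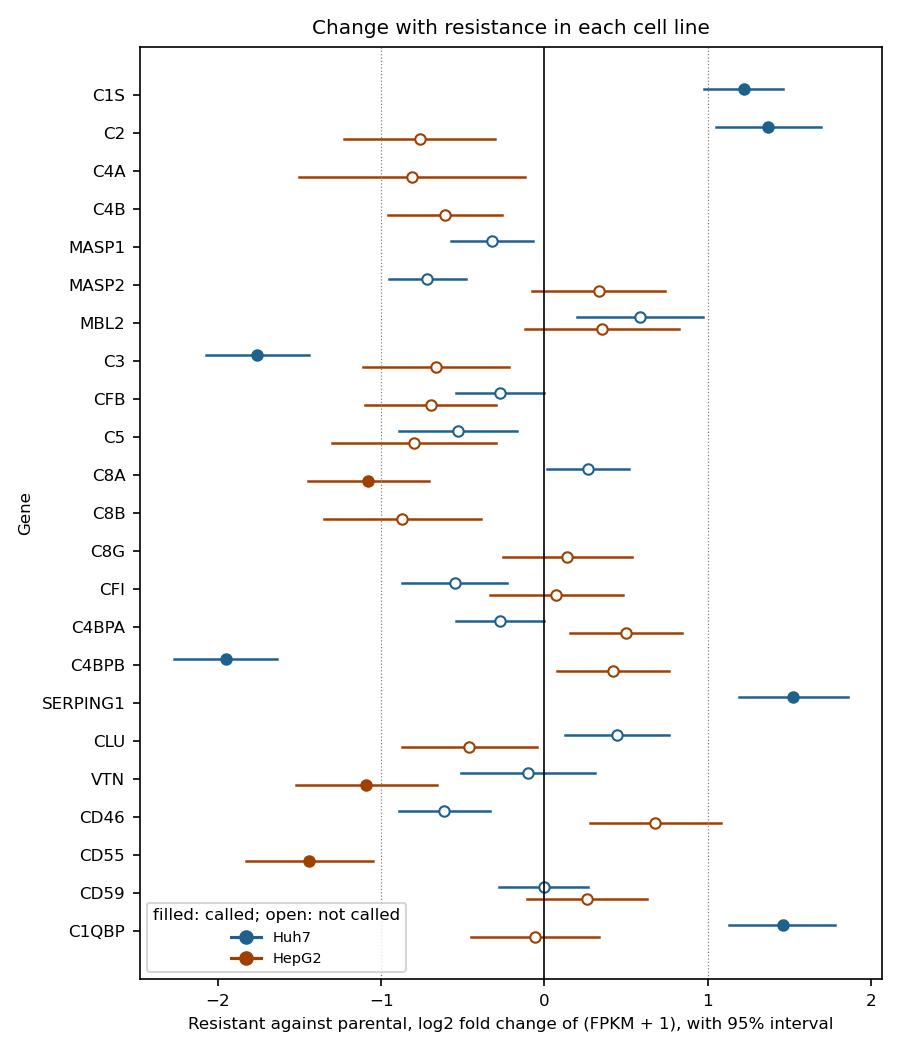
Log2 fold change of (FPKM + 1) of resistant against parental cells (horizontal axis) for each complement gene tested, with 95% intervals, in Huh7 (blue) and HepG2 (brown). Filled points are differentially expressed, dotted lines mark 1 and -1, and no gene has a filled point in both lines.

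The changes differed between the lines for many of these genes. The interaction of cell line and resistance was tested over all 12 samples, and 23 complement genes could be tested. The change in Huh7 cells exceeded that in HepG2 cells for C1S, C2, SERPING1, C1QBP, CD55, C8A and C8B (7 genes, background 10.6%) and was below it for C3, C4BPB, CD46 and MASP2 (4 genes, background 18.2%). In limma-voom 11 were higher and 5 lower (of 27, backgrounds 14.6% and 23.5%). The 11 genes named had an adjusted p-value under 0.05 and a difference beyond 1 on the log2 scale. The median difference was 0.42 for the complement genes and -0.15 for all genes.

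Depth moved with the groups in both lines, and a trend with GC content went with the Huh7 comparison. Every resistant sample had more reads than every parental sample of its line. In Huh7 cells the reads were 18972396 to 19285960 in resistant and 16158297 to 17944448 in parental samples. In HepG2 cells they were 16935539 to 18281775 and 12290128 to 15728850. The part of depth in the complement results was not tested. Across 12545 genes the change in Huh7 cells rose with the GC content of the transcript (Spearman's rho 0.62, genes not being independent replicates), whereas rho was 0.04 across 11756 genes in HepG2 cells. The 18 genes tested in Huh7 cells ran from 37.0% GC in MBL2 to 57.2% in SERPING1. With the GC trend of each library taken off, C1S, C1QBP, C3 and C4BPB were still differentially expressed in the same direction, at 1.14, 1.17, -2.27 and -1.78 log2. C2 and SERPING1 came to 0.89 and 0.99 and no longer passed the fold threshold, with adjusted p-values of 0.000485 and 6.6e-05. MBL2 and MASP2 passed it, at 1.44 and -1.04.

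**Figure D3:**
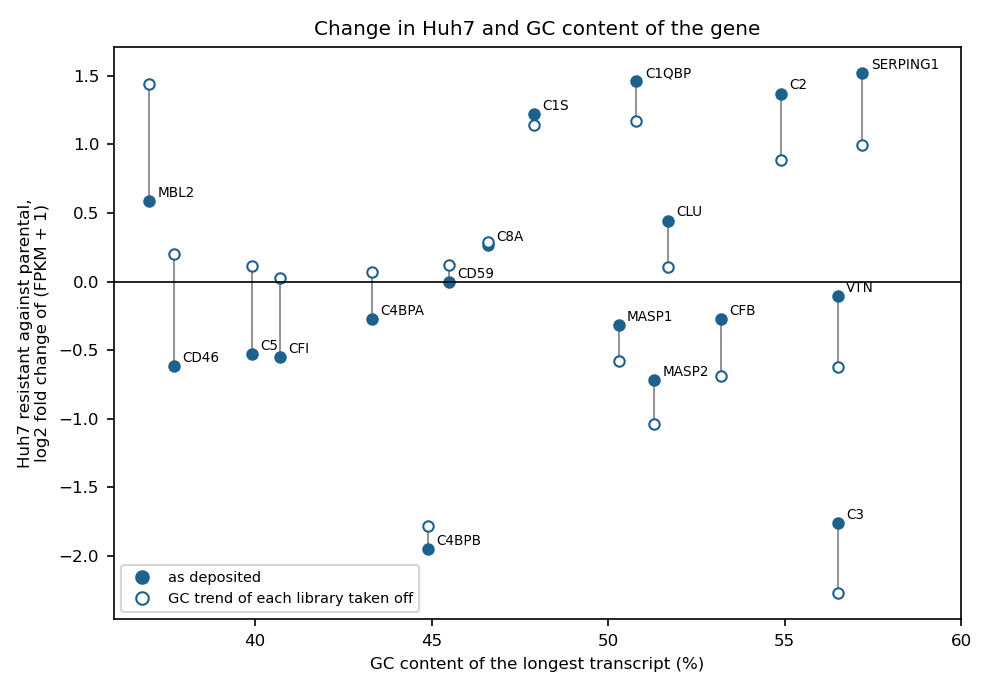
Log2 fold change of resistant against parental Huh7 cells (vertical axis) against the GC content of the longest transcript in percent, for the 18 complement genes tested. Filled points use the values as deposited and open points the values with the GC trend of each library taken off: the genes of lowest GC content (MBL2, CD46, C5, CFI) move up and those of highest GC content (SERPING1, C3, VTN, C2) move down.

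C1R and C1S are the initiating proteases of the classical pathway, and C1S cleaves C4 and C2 once C1q has bound its target. C1S (ENSG00000182326, GRCh38 chr12:6988259-7071032, plus strand) was at 5.21, 5.84 and 5.83 FPKM in resistant Huh7 cells and at 2.00, 1.75 and 1.78 FPKM in parental ones. The groups did not overlap, and the log2 fold change was 1.22 ± 0.105 (SE, adjusted p = 4.48e-05). In HepG2 cells C1S was at 0.183, 0.271 and 0.189 FPKM in resistant samples and at 0.754, 0.932 and 0.905 FPKM in parental ones, again without overlap but in the other direction. At these levels the gene was under the filter, and it was tested in limma-voom on the reads behind the values, for genes with 10 reads in 3 samples (an analysis added after the data had been seen). There the log2 fold change was -2.00 (adjusted p = 0.000278) in HepG2 cells and 1.60 (adjusted p = 4.61e-11) in Huh7 cells. The change of C1S thus differed by 1.84 ± 0.128 (SE) log2 between the lines in limma (adjusted p = 1.71e-06).

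C1R, the partner protease, whose gene lies beside C1S on chromosome 12, had the same pattern at lower levels. Resistant Huh7 cells had 0.939, 0.850 and 0.797 FPKM (86 to 101 reads) and parental ones 0.344, 0.366 and 0.360 FPKM (33 to 35 reads). In HepG2 cells the resistant samples had 9 to 18 reads and the parental samples 49 to 65 reads. The limma-voom log2 fold changes were 1.27 in Huh7 cells (adjusted p = 3.59e-05) and -2.21 in HepG2 cells (adjusted p = 0.000729), a difference of 3.48 (adjusted p = 3.68e-06). C1RL shares 11.4% of the exon bases of C1R, and the counting of shared bases is not described.

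SERPING1 (C1 inhibitor, ENSG00000149131, chr11:57597387-57614853, plus strand) blocks C1R, C1S and the lectin pathway proteases. SERPING1 moved in each line in the same direction as C1R and C1S. In Huh7 cells MASP1 and MASP2 fell while SERPING1 rose, and in HepG2 cells MASP1 fell as SERPING1 did. Resistant Huh7 samples were at 126, 96.4 and 115 FPKM and parental ones at 43.8, 38.7 and 32.8 FPKM. Every resistant sample was above every parental one, with a log2 fold change of 1.52 ± 0.146 (SE, adjusted p = 6.71e-05). Its share of the summed complement FPKM was 5.57% to 6.46% in parental and 15.1% to 16% in resistant Huh7 cells. HepG2 cells held little of this transcript, at 1.27, 0.587 and 0.653 FPKM in parental samples and 0.229, 0.440 and 0.435 FPKM in resistant ones. In limma-voom the HepG2 change was -1.13 (adjusted p = 0.0451), from 14 to 29 reads in resistant and 26 to 60 reads in parental samples. The difference in change between the lines was 1.93 ± 0.230 (SE) log2 in limma (adjusted p = 5.9e-05).

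C2, the serine protease of the classical and lectin C3 convertase, is at chr6:31897785-31945672 (ENSG00000166278, plus strand), next to CFB, its counterpart in the alternative pathway. C2 was at 4.59, 4.22 and 3.94 FPKM in resistant Huh7 samples and at 1.17, 1.29 and 0.693 FPKM in parental ones. The resistant samples were all higher, with a log2 fold change of 1.37 ± 0.139 (SE, adjusted p = 8.44e-05). In HepG2 cells C2 fell from 26.4, 27.9 and 17.8 FPKM to 11.2, 15.5 and 14.1 FPKM, a log2 fold change of -0.76 (adjusted p = 0.0319). The difference in change between the lines, 2.13 ± 0.255 (SE) log2 (adjusted p = 6.1e-05), and it was 1.79 with the GC trend taken off.

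CFB did not rise with C2 in Huh7 cells. It was at 0.960, 1.03 and 1.08 FPKM in resistant and 1.77, 1.32 and 1.26 FPKM in parental samples, which did not overlap, and its log2 fold change of -0.27 did not pass the test (adjusted p = 0.0661). It passed in limma-voom (-0.49, adjusted p = 0.032) and with the GC trend taken off (-0.69, adjusted p = 0.00061). In HepG2 cells CFB fell from 11.3, 9.85 and 7.35 FPKM to 5.51, 5.91 and 4.85 FPKM (log2 fold change -0.70, adjusted p = 0.027). The ratio of C2 to CFB was therefore 0.549 to 0.976 in parental and 3.64 to 4.78 in resistant Huh7 samples. In HepG2 samples it was 2.33 to 2.83 in parental and 2.03 to 2.92 in resistant cells, which overlapped. C2 and CFB overlap each other by 23 exon bases and share 32.9% and 45.0% of their exon bases with the readthrough gene AL645922.1, which was listed at no more than 0.029 FPKM in any sample.

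C4A and C4B encode nearly identical forms of C4, whose cleaved product joins C2 in the convertase, and reads of the copies can be split between them only in part. In Huh7 cells they had 1 to 18 reads per sample in either group. HepG2 cells had C4B at 12.7, 12 and 9.77 FPKM in parental and 6.4, 7.9 and 7.3 FPKM in resistant samples, which did not overlap (log2 fold change -0.61, adjusted p = 0.027). C4A was at 7.47, 9.55 and 9.91 FPKM in parental and 3.10, 8.55 and 3.61 FPKM in resistant samples. Resistant replicate 2 lay within the parental range, and the log2 fold change of -0.81 did not pass the test (adjusted p = 0.0922). Without that replicate it was -1.19 (adjusted p = 0.00818), for the summed level of both copies it was -0.73 (adjusted p = 0.0343), and it passed the test in limma-voom (-0.96, adjusted p = 0.0306) and with the GC trend taken off (-0.94, adjusted p = 0.0246).

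**Figure D4:**
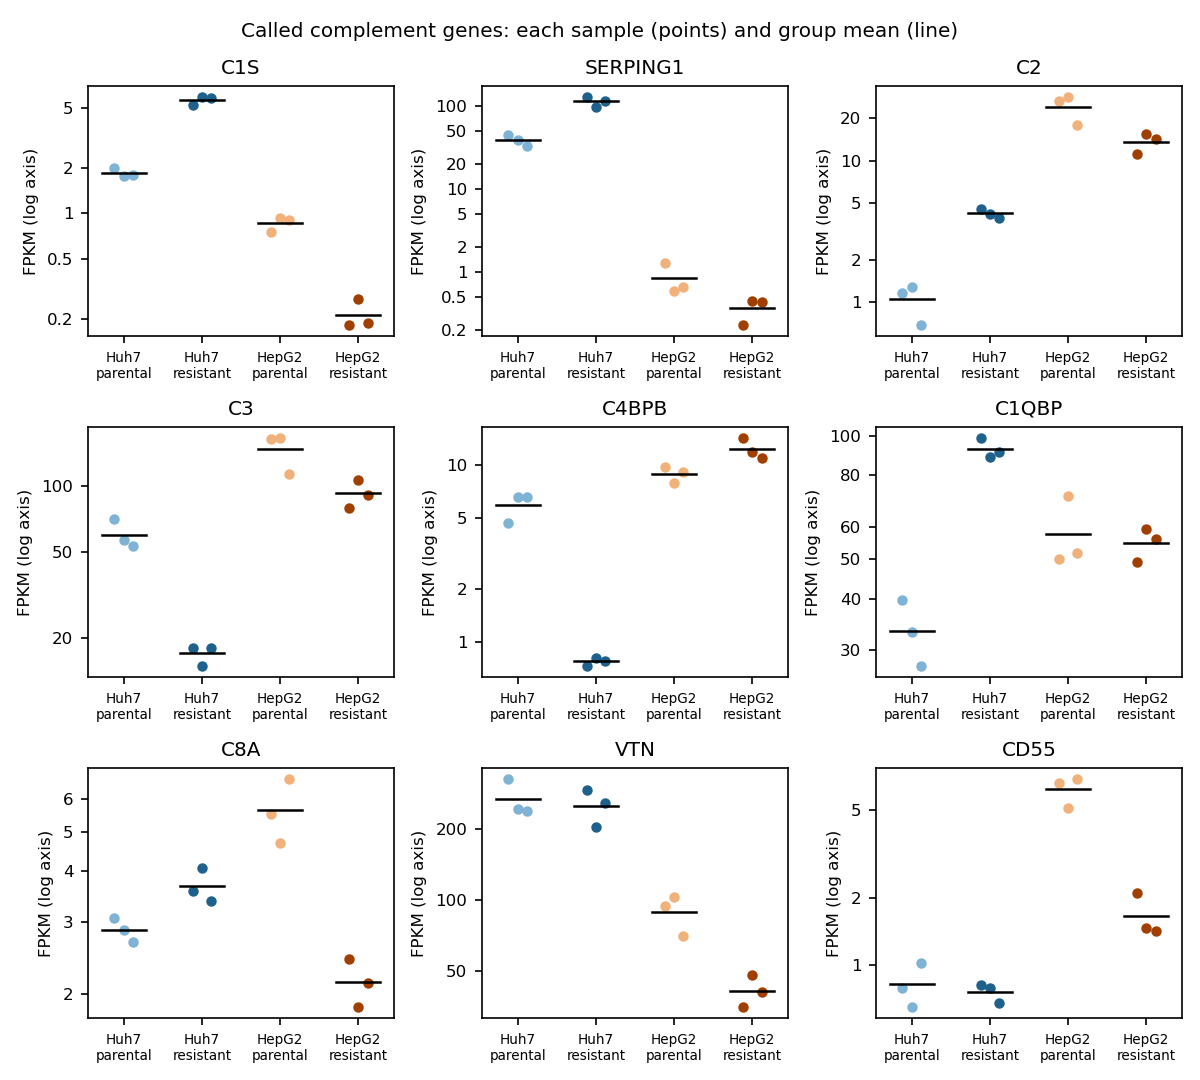
FPKM on log axes of the 9 complement genes differentially expressed in one of the lines, with 1 point per sample and a line at the group mean, in 4 groups of 3 samples. C1S, SERPING1, C2 and C1QBP are higher and C3 and C4BPB lower in resistant than in parental Huh7 cells, and C8A, VTN and CD55 are lower in resistant than in parental HepG2 cells.

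The lectin pathway starts from MBL2 (mannose-binding lectin) and its proteases MASP1 and MASP2. MASP2 was at 1.67, 1.61 and 1.42 FPKM in resistant and 3.09, 3.30 and 3.28 FPKM in parental Huh7 cells, and it fell by 0.72 on the log2 scale (adjusted p = 0.000375). In HepG2 cells it was at 9.28, 12.2 and 10.9 FPKM in resistant and 7.67, 7.10 and 10.6 FPKM in parental samples, which overlapped (log2 fold change 0.33, adjusted p = 0.218). The changes of MASP2 differed by -1.05 log2 between the lines (adjusted p = 0.00103), and this difference fell short of 1 with median-ratio scaling (-0.88) and without 1 of 3 HepG2 samples (from -0.997 to -0.948). MASP1 was a Huh7 transcript, at 24.3, 22.9 and 22.3 FPKM in resistant and 32.8, 28.5 and 26.5 FPKM in parental samples (log2 fold change -0.32, adjusted p = 0.0293). Its HepG2 levels were 0.112, 0.191 and 0.0971 FPKM in resistant and 0.561, 0.519 and 0.367 FPKM in parental samples, a limma-voom log2 fold change of -1.86 (adjusted p = 0.000935). MBL2 rose in Huh7 cells, from 4.54, 6.75 and 5.60 FPKM to 8.17, 11.1 and 7.68 FPKM (log2 fold change 0.59, adjusted p = 0.0132), and did not pass the test in HepG2 cells (0.35, adjusted p = 0.255).

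C3 (ENSG00000125730, chr19:6677704-6730562, minus strand) fell in both lines, and more so in Huh7 cells. In Huh7 cells it was at 18.0, 14.8 and 18.0 FPKM in resistant samples (mean 16.9 ± 1.84, SD, n = 3) and at 70.4, 56.3 and 52.9 FPKM in parental ones (mean 59.9 ± 9.28, SD, n = 3). This was 3.53 times lower, with no overlap and a log2 fold change of -1.76 ± 0.138 (SE, adjusted p = 3.16e-05). HepG2 cells were at 79.6, 107 and 91.5 FPKM in resistant and 166, 166 and 113 FPKM in parental samples, also without overlap (log2 fold change -0.66, adjusted p = 0.0461). The difference in change between the lines was -1.09 ± 0.248 (SE) log2 (adjusted p = 0.00321), and it was -0.89 with median-ratio scaling and -0.99 to -0.91 without any 1 of 3 samples. The share of C3 in the summed complement FPKM of Huh7 cells was 8.99% to 9.79% in parental and 2.29% to 2.48% in resistant samples. In FPKM, which is per length, the ratio of C3 to CFB was 39.7 to 42.7 in parental and 14.4 to 18.8 in resistant Huh7 samples. The HepG2 ratios were 14.7 to 16.9 in parental and 14.4 to 18.9 in resistant samples. CFD, the protease that activates factor B, had at most 14 reads in a sample and was not tested.

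Of the terminal pathway genes, C5, C8A and C8B fell in HepG2 cells and C5 fell in Huh7 cells. C5, the precursor of the C5a peptide and first part of the attack complex, was at 15.1, 10.2 and 10.7 FPKM in resistant and 25.1, 15.7 and 24.2 FPKM in parental HepG2 cells (log2 fold change -0.80, adjusted p = 0.0369). In Huh7 cells it was at 33.9, 40.6 and 34.0 FPKM against 42.1, 54.5 and 63.2 FPKM (log2 fold change -0.53, adjusted p = 0.0155), and this reversed to 0.12 (adjusted p = 0.339) with the GC trend taken off. C5 did not overlap between groups in either line.

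C8 is built from an alpha, a beta and a gamma chain, each from its own gene. C8A (alpha, ENSG00000157131, chr1:56854806-56918221, plus strand) was at 2.43, 1.86 and 2.12 FPKM in resistant and 5.53, 4.70 and 6.72 FPKM in parental HepG2 cells, without overlap (log2 fold change -1.08 ± 0.163 SE, adjusted p = 0.00381). Without parental replicate 3 the change was -0.96 and short of the fold threshold. C8B (beta), which lies beside C8A, was at 0.411, 0.481 and 0.362 FPKM against 2.48, 1.49 and 1.00 FPKM (log2 fold change -0.87, adjusted p = 0.0236). C8G (gamma), on chromosome 9, was at 17.6, 26.2 and 23.9 FPKM against 21.7, 18.4 and 20.6 FPKM, and these overlapped (log2 fold change 0.14, 95% interval -0.26 to 0.53, adjusted p = 0.593). In Huh7 cells C8A was at 3.58, 4.07 and 3.37 FPKM in resistant and 3.08, 2.87 and 2.68 FPKM in parental samples (log2 fold change 0.27, adjusted p = 0.055, and 0.29 with adjusted p = 0.00986 with the GC trend taken off). C8B had 22 to 43 reads and C8G 2 to 14 reads per Huh7 sample, and both were under the filter. The difference in change between the lines was 1.35 log2 for C8A (adjusted p = 0.00012) and 1.02 for C8B (adjusted p = 0.00386), the latter coming to 0.80 to 0.99 without any 1 of 4 samples. C6 had 13 to 21 reads in resistant and 56 to 72 reads in parental Huh7 samples, a limma-voom log2 fold change of -2.00 (adjusted p = 1.25e-06). C7 and C9 had at most 16 and 8 reads in any sample.

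C4b-binding protein inactivates C4b and is assembled from alpha chains (C4BPA) and a beta chain (C4BPB), whose genes are neighbours on chromosome 1. C4BPB (ENSG00000123843, chr1:207088842-207099993, plus strand) fell in Huh7 cells, from 4.69, 6.62 and 6.58 FPKM to 0.737, 0.822 and 0.784 FPKM. The FPKM mean was 7.64 times lower and the log2 fold change -1.95 ± 0.137 (SE, adjusted p = 1.99e-05). C4BPA was at 1.58, 2.12 and 1.92 FPKM in resistant and 2.60, 2.58 and 2.21 FPKM in parental Huh7 cells, and its log2 fold change of -0.27 did not pass the test (adjusted p = 0.0678). Each parental Huh7 sample thus held less C4BPA than C4BPB, with a ratio of 0.335 to 0.555, and each resistant sample more, with a ratio of 2.14 to 2.59. In HepG2 cells the ratio was 1.46 to 2.22 in parental and 1.69 to 2.03 in resistant samples. There C4BPA rose from 17.5, 17.7 and 13.3 FPKM to 23.9, 23.1 and 22.3 FPKM (log2 fold change 0.50, adjusted p = 0.049), and this did not pass the test with median-ratio scaling (0.39, adjusted p = 0.118) or with the GC trend taken off (0.42, adjusted p = 0.0742). C4BPB was at 14.1, 11.8 and 11.0 FPKM against 9.72, 7.96 and 9.11 FPKM in HepG2 cells, with no overlap (0.42, adjusted p = 0.0801). The change of C4BPB differed by -2.38 ± 0.192 (SE) log2 between the lines (adjusted p = 4.74e-06), and that of C4BPA by -0.77 (adjusted p = 0.00308), or -0.38 (adjusted p = 0.0906) with the GC trend taken off.

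**Figure D5:**
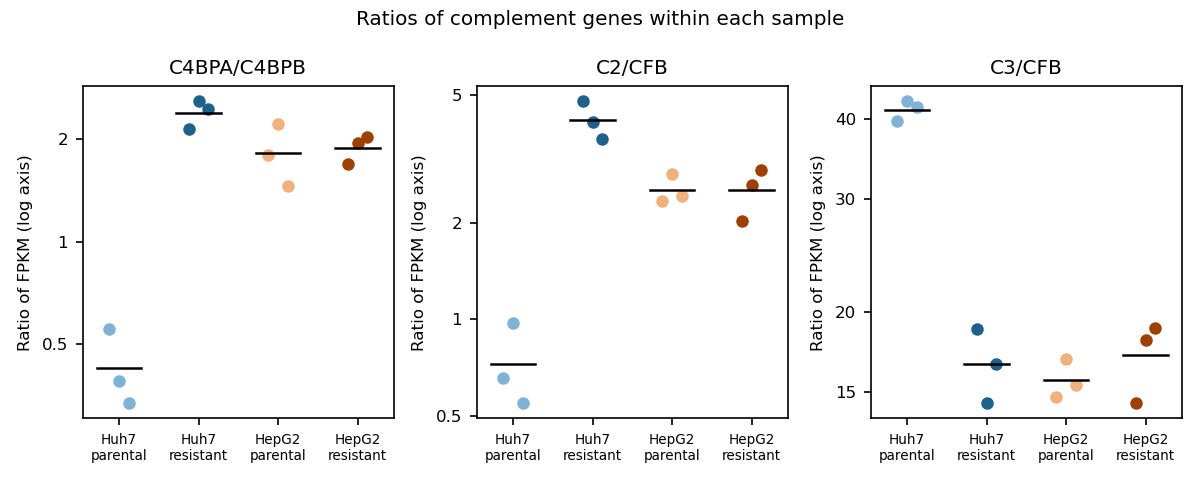
Ratio of the FPKM of 2 complement genes within each sample, on log axes, with 1 point per sample and a line at the group mean. In Huh7 cells the ratios of C4BPA to C4BPB and of C2 to CFB are higher and that of C3 to CFB lower in all resistant samples, while the resistant and parental HepG2 samples overlap in all 3 ratios.

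Among the other soluble regulators, VTN (ENSG00000109072, chr17:28367276-28373091, minus strand) was at 35.1, 47.8 and 40.5 FPKM in resistant and 94.0, 103 and 70.2 FPKM in parental HepG2 cells. It was lower in all resistant samples, by a log2 fold change of -1.09 ± 0.188 (SE, adjusted p = 0.00675), and this came to -0.98 without resistant replicate 1 or without parental replicate 2. In Huh7 cells VTN was at 293, 204 and 260 FPKM against 327, 245 and 241 FPKM, and these overlapped (log2 fold change -0.10, 95% interval -0.51 to 0.31). With the GC trend taken off, the Huh7 change of VTN was -0.62 (95% interval -0.89 to -0.35, adjusted p = 0.00264). CLU was at 151, 120 and 142 FPKM in resistant and 117, 93.3 and 92.8 FPKM in parental Huh7 cells, with a log2 fold change of 0.44 (adjusted p = 0.0197) that came to 0.11 (adjusted p = 0.344) with the GC trend taken off. In HepG2 cells CLU was at 47.5, 66.3 and 55.5 FPKM against 78.6, 90.5 and 65.0 FPKM, which overlapped (-0.46, adjusted p = 0.105, and -0.53 with adjusted p = 0.0197 with the GC trend taken off). Between the lines the changes of VTN and CLU differed by 0.99 and 0.91 log2 (adjusted p = 0.00943 and 0.00612). CFI, the protease that cleaves C3b and C4b with the help of cofactors, was at 0.778, 0.925 and 0.982 FPKM in resistant and 1.4, 1.67 and 2.32 FPKM in parental Huh7 cells. Its log2 fold change of -0.55 (adjusted p = 0.0076) came to 0.03 with the GC trend taken off. In HepG2 cells CFI was at 8.73, 5.97 and 6.5 FPKM against 7.34, 5.53 and 7.02 FPKM, which overlapped (0.07, adjusted p = 0.791).

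The factor H related genes compete with factor H for C3b and were scarce. CFHR4 had 13 to 23 reads in parental and 1 to 8 reads in resistant Huh7 samples, a limma-voom log2 fold change of -2.18 (adjusted p = 0.000868). CFHR5 had 10 to 16 reads in parental and 5 to 13 reads in resistant Huh7 samples, which overlapped (adjusted p = 0.0628 in limma-voom). CFHR3 had at most 2 reads in any sample.

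The membrane regulators CD46, CD55 and CD59 sit on the cell's own surface. CD55 (decay-accelerating factor, which dissociates the convertases; ENSG00000196352, chr1:207321376-207386804, plus strand) was at 2.10, 1.46 and 1.42 FPKM in resistant and 6.63, 5.14 and 6.90 FPKM in parental HepG2 cells. All resistant samples were lower, with a FPKM mean 3.75 times lower and a log2 fold change of -1.44 ± 0.169 (SE, adjusted p = 0.0014). In Huh7 cells CD55 was at 0.812, 0.781 and 0.668 FPKM against 0.783, 0.643 and 1.02 FPKM, under the filter and overlapping. The difference in change was 1.4 ± 0.191 (SE) log2 (adjusted p = 0.000145). CD46 (membrane cofactor protein, the cofactor for factor I on the cell surface) rose in HepG2 cells, from 7.22, 5.46 and 7.99 FPKM to 13.3, 10.1 and 11.3 FPKM (log2 fold change 0.68, adjusted p = 0.0289). CD46 fell in Huh7 cells, from 12.3, 13.0 and 15.7 FPKM to 7.92, 9.32 and 8.42 FPKM (-0.61, adjusted p = 0.00209). The difference of -1.29 between these changes (adjusted p = 0.000411) came to -0.41 (adjusted p = 0.00469) with the GC trend taken off, where the Huh7 change turned to 0.20 (adjusted p = 0.0309). CD59, which keeps C9 from joining the complex, was at 4.65, 5.76 and 5.36 FPKM against 5.90, 4.88 and 5.06 FPKM in Huh7 cells (-0.01, 95% interval -0.28 to 0.27). In HepG2 cells it was at 10.3, 10.7 and 10.5 FPKM against 10.1, 9.10 and 6.83 FPKM, without overlap, and did not pass the test (0.26, adjusted p = 0.279).

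C1QBP (ENSG00000108561, chr17:5432777-5448830, minus strand) encodes a protein first known for binding C1q that resides mainly in mitochondria. It was at 98.4, 88.7 and 91.2 FPKM in resistant and 39.8, 33.1 and 27.5 FPKM in parental Huh7 cells, without overlap (log2 fold change 1.46 ± 0.142 SE, adjusted p = 7.26e-05). In HepG2 cells C1QBP was at 49.3, 59.1 and 56.0 FPKM against 50.1, 71.0 and 51.8 FPKM, which overlapped (-0.06, 95% interval -0.45 to 0.33). The difference in change was 1.52 ± 0.224 (SE) log2 (adjusted p = 0.000232).

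The parental lines differed in most of these genes before any drug exposure recorded in the labels. Of 23 genes tested, 4 were differentially expressed and higher in parental Huh7 than in parental HepG2 cells (background 19.4%) and 10 were lower (background 12.5%). The higher ones were SERPING1 (38.4 against 0.836 FPKM), MASP1 (29.3 against 0.483 FPKM), VTN (271 against 89.2 FPKM) and C5 (53.3 against 21.7 FPKM). C5 came to 0.74 log2, short of the fold threshold, with the GC trend taken off. The lower ones were C4A, C4B, C2, CFB, C3, C8G, C4BPA, CFI, CD55 and MASP2. On the FPKM scale C4B was 295 times lower (0.039 against 11.5 FPKM, from 1 to 8 reads in a Huh7 sample), C8G 48.9 times lower (0.413 against 20.2 FPKM) and C2 22.9 times lower (1.05 against 24.0 FPKM). The parental samples of the lines did not overlap for 22 of the 23 genes, with 7 higher and 15 lower in Huh7 cells (backgrounds 41.6% and 28.4%). MBL2 was the gene that overlapped. In limma-voom 8 genes of 27 were higher and 11 lower (backgrounds 29.1% and 16.0%).

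Other genes of the system were taken from a list of 27 receptors, further regulators and initiators, of which 25 had a row and 8 reached 1 FPKM in a sample. In Huh7 cells 5 of them were tested, with 1 differentially expressed in each direction (backgrounds 8.59% higher and 14.0% lower). CPN1, the catalytic subunit of carboxypeptidase N that trims C3a and C5a, was at 16, 15.3 and 14.5 FPKM in resistant and 7.26, 5.38 and 5.90 FPKM in parental Huh7 cells (log2 fold change 1.19). SUSD4, a membrane protein with complement control domains, was at 0.213, 0.242 and 0.168 FPKM against 4.22, 3.68 and 3.88 FPKM (log2 fold change -2.03, with 15 to 22 reads in resistant and 292 to 357 reads in parental samples). In HepG2 cells 7 were tested, with none higher in limma and 1 lower (backgrounds 3.29% and 2.98%). This was C5AR1, the receptor for C5a, at 0.140, 0.0371 and 0.0788 FPKM in resistant and 7.59, 10.1 and 7.13 FPKM in parental samples (log2 fold change -3.08). C5AR1 went from 294 to 365 reads per parental sample to 2 to 7 reads per resistant sample, and Huh7 samples of either group had 1 to 10 reads. The differences in change between the lines were 3.17 for C5AR1, 1.74 for CPN1 and -1.99 for SUSD4 on the log2 scale. The changes of these listed genes are of the values as deposited and are not given with the GC trend taken off. The myeloid cells in which C5AR1 is best known are marked by PTPRC, CD14 and CD68, whose list of 6 macrophage markers summed to 1.57 to 1.83 FPKM in parental and 1.41 to 1.63 FPKM in resistant HepG2 cells. Whether such cells had a part in the C5AR1 values was not tested.

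A second list held 24 receptors and transcription factors that act on acute phase and complement genes, of which 21 were tested in each line. In Huh7 cells 3 were differentially expressed and higher and 3 lower, beside backgrounds of 8.59% and 14.0%. TNFRSF1A (tumour necrosis factor receptor, log2 fold change 2.48), FOXA3 (a liver transcription factor, 1.32) and IL6R (1.22) were higher, and IL6ST (-1.57), IL1R1 (the interleukin 1 receptor, -1.27) and JAK2 (-1.24) were lower. IL6R and IL6ST encode the binding and the signalling chain of the interleukin 6 receptor. IL6R was at 13.2, 13.3 and 13.6 FPKM in resistant and 5.81, 5.28 and 4.51 FPKM in parental Huh7 cells, and IL6ST at 3.40, 3.10 and 2.79 FPKM against 9.43, 10.1 and 14.4 FPKM. The chains changed in opposite directions, and neither overlapped between the groups. All changes of this list are of the values as deposited. They are not given with the GC trend taken off, although the Huh7 changes rose with GC content. In HepG2 cells none was higher in limma and 1 was lower (backgrounds 3.29% and 2.98%), CEBPB, a C/EBP factor, at 19.3, 20.1 and 16.8 FPKM against 42.5, 51.8 and 36.9 FPKM (log2 fold change -1.17). The JAK2, IL1R1 and IL6ST changes were lower in Huh7 than in HepG2 cells, by -1.29, -1.99 and -1.40 log2, and those of TNFRSF1A, IL6R, CEBPB, STAT3 and IFNGR2 were higher, by 2.51, 1.85, 1.66, 1.04 and 1.02 (3 and 5 of 21 genes, backgrounds 18.2% and 10.6%).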

How the data were processed

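Each sample had one deposited table with one value per gene. The unit is not stated, and the values, called FPKM here, were made by the authors with a quantification tool that is not given in the sources used here. The aligner is also not given. GRCh38 and bcl2fastq are named in the submitters' processing notes, and the labels and the paper's methods name different RNA extraction kits. The library kit was not described as stranded, so a gene and its antisense partner cannot be told apart. Whether they are FPKM or RPKM the values do not show.

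The value times exon length (GENCODE 29) fell on whole multiples of 1 step per sample, which gave the reads behind a sample (12290128 to 19285960). In every sample over 99% of the single-exon values of up to 2000 reads (lowest 99.75%) were within 0.05 of a whole number. The design had allowed for read counts or normalized values, and limma on log2(FPKM + 1) was used, with genes of at least 1 FPKM in at least 3 samples. Resistant and parental cells were compared within each line, parental lines with each other, and changes between lines by interaction over 12 samples. Thresholds were an adjusted p-value of 0.05 and a log2 fold change of 1. To take off the GC trend, a lowess curve (span 0.3) against GC content was subtracted from each library.

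Genes named with each value are those differentially expressed in a comparison and the most abundant gene of each role, and listed genes that were differentially expressed. The values of C1R, MBL2, CLU and CD59 in every sample were added after they were seen. The members and lists were chosen with earlier results of these data known. The fit was tested on simulated data. Python 3.11.15, pandas 2.3.3, numpy 2.4.6, R 4.3.3 and limma 3.58.1 were used. Alternatives were a pseudocount of 0.1, no filter, median-ratio scaling, limma-voom, removal of the GC trend, the replicate number as a block and leaving out each sample. Limma-voom with 10 reads in 3 samples and the sum of C4A and C4B were chosen after seeing the data.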

Additional observations from a re-analysis of the deposited data

Results flagged for a closer look

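For 11 of the 23 complement genes tested the change with resistance differed between Huh7 and HepG2 cells. The test was the interaction of cell line and resistance over 12 samples in limma (adjusted p-value under 0.05 and a difference beyond 1 on the log2 scale). Over all genes tested, 10.6% had a higher and 18.2% a lower change in Huh7 cells by this rule. The difference is the change in Huh7 cells minus that in HepG2 cells. For the 7 genes with a higher change it was 2.13 for C2, 1.93 for SERPING1, 1.84 for C1S, 1.52 for C1QBP, 1.4 for CD55, 1.35 for C8A and 1.02 for C8B. For the 4 genes with a lower change it was -2.38 for C4BPB, -1.29 for CD46, -1.09 for C3 and -1.05 for MASP2. C2 and CD46 changed in opposite directions in the 2 lines, each with an adjusted p-value under 0.05, but CD46 was higher in both with the GC trend taken off. C1S and SERPING1 were under the filter in HepG2 cells in limma. In limma-voom with 10 reads in 3 samples they rose in Huh7 and fell in HepG2 cells, with adjusted p-values under 0.05. C3 fell in both. C4BPB fell in Huh7 cells and did not pass the test in HepG2 cells.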

How the results depend on the processing

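Differential expression of C1S, C3, C4BPB and C1QBP in Huh7 cells and of CD55 in HepG2 cells held under all alternatives run. Limma-voom with genes of 10 reads in 3 samples changes both the filter and the scale, and the backgrounds with them. In Huh7 cells 5 of 25 were lower (background 22.4%), beside 2 of 18 in limma (14.0%). In HepG2 cells 8 of 24 were lower (5.16%), beside 3 of 20 in limma (2.98%). A higher change in Huh7 than in HepG2 cells was found for 11 of 27 (14.6%), beside 7 of 23 in limma (10.6%). In parental cells 8 of 27 were higher in Huh7 than in HepG2 (29.1%), beside 4 of 23 in limma (19.4%). Median-ratio scaling left 2 genes with a lower change in Huh7 cells in place of 4, with C3 and MASP2 short of the fold threshold. Leaving out 1 sample gave 4 higher and 2 lower genes in Huh7 cells each time, and 0 higher and 2 to 4 lower in HepG2 cells. For the difference between the lines it gave 6 to 10 higher and 2 to 4 lower (2 without HepG2 resistant replicate 2). Between parental lines it gave 4 to 5 higher and 9 to 10 lower. The share over all genes was not computed with median-ratio scaling or with a sample left out, so these counts have no background beside them.

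With the GC trend taken off, the log2 fold change in Huh7 cells turned from negative to positive for C5 (0.12), CFI (0.0286), C4BPA (0.0668), CD46 (0.20) and CD59 (0.12). In HepG2 cells that of C8G turned to -0.13 and that of CFI to -0.0358. The difference between the lines turned for MASP1 (-0.0965), C8G (-0.177) and CFI (0.026), and parental MBL2 turned to -0.52. Median-ratio scaling turned CD59 in Huh7 cells (0.0576), CFI in HepG2 cells (-0.0245) and parental MBL2 (-0.013). Leaving out 1 sample turned the sign of values that had not passed the test, with ranges of -0.219 to 0.0419 for VTN and -0.0634 to 0.0655 for CD59 in Huh7 cells, -0.0695 to 0.171 for CFI and -0.148 to 0.0995 for C1QBP in HepG2 cells, and -0.000393 to 0.147 for MASP1 and -0.149 to 0.183 for C8G for the difference. MASP1 was under 1 FPKM in every HepG2 sample, where the log2(FPKM + 1) scale understates change. In limma-voom with 10 reads in 3 samples it was among the 11 genes with a higher change in Huh7 than in HepG2 cells. The cause of the shifts in sign was not tested beyond the GC trend itself.

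With the replicate number as a block all counts were as without it (4 higher and 2 lower in Huh7 cells, 0 and 3 in HepG2 cells, 7 and 4 for the difference, 4 and 10 between parental lines). The share over all genes was not computed for this setting. The samples share only a number: deviations of same-numbered resistant and parental samples correlated at 0.07, 0.05 and -0.20 in Huh7 cells and 0.22, 0.39 and -0.01 in HepG2 cells, and not every sample correlated best with its own number. C7, C9, CFD and CFHR3 passed neither the filter on level nor that on reads, and the part of depth in this was not tested.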
